A study of Mus musculus with 6 samples.

Results

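The genes described here encode the receptors through which iNKT cells receive interleukin-12 (IL-12), interleukin-18 (IL-18) and interferon-gamma. They are Il12rb1 and Il12rb2 (the chains of the IL-12 receptor), Il18r1 and Il18rap (the chains of the IL-18 receptor), Ifngr1 and Ifngr2 (the chains of the interferon-gamma receptor) and Stat4 (the transcription factor that IL-12 activates). They were chosen by symbol, 7 of the 27998 genes listed for every library, by a rule that uses the symbol alone, although earlier results of these data were known when they were chosen. All 7 were found, and all 7 passed the filter on low counts when UMIs were summed over all cells of a library.

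Invariant natural killer T (iNKT) cells are T cells that recognise lipids on the molecule CD1d and fall into subsets named iNKT1, iNKT2 and iNKT17 after the cytokines they make. They came from lymph node, spleen and liver, each represented by 2 libraries, and the expression of single cells was measured by droplet sequencing of transcript 3′ ends. In all 3 groups the mice were wild-type (WT) C57BL/6 animals aged 5 weeks with no treatment named. Cells positive for CD8 or B220 were depleted, and those that stained for TCR-β and bound a CD1d tetramer were sorted. The labels call the molecule nuclear RNA, and they do not say which animals gave a library, although the study's methods speak of biological repeats. The p-values below therefore measure the spread between libraries, which may be technical in part. After filtering, 16532 cells remained, of which 5662 came from liver, 5384 from spleen and 5486 from lymph node.

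The libraries held 4768016 to 11086603 UMIs (unique molecular identifiers, counts of single captured transcripts). The median per cell was 2880 to 3592 UMIs in liver, against 1470 to 1730.5 UMIs in the other organs. The T cell genes Cd3e, Cd3g and Thy1 and the iNKT regulator Zbtb16 were detected in every library, at a summed 3453 to 4546 CPM (UMIs per 1000000 UMIs of a library). The lymph node libraries stood apart in 2 ways. They held no UMI of the X inactivation gene Xist and 1366 and 1584 UMIs of Y-chromosome genes, whereas liver and spleen held Xist and no UMI of those Y genes, so that organ and sex cannot be told apart in any comparison with lymph node. They also held 6800 and 7327 CPM of 8 immediate early genes such as Fos, Junb and Dusp1, against 795 to 1432 in liver and spleen, and the part of this in the results was not tested. The summed level of 4 B cell markers was 2.52 to 16.2 CPM, that of 5 hepatocyte markers 1.65 to 4.05 (Ttr and Serpina1a at 0 in every library), and that of 5 endothelial markers 0.520 to 1.14 in liver and spleen and 11.1 and 16.0 in lymph node, with Kdr at 0 in every library. Stab2 alone gave 37 of the 41 and 57 of the 58 endothelial marker UMIs in the lymph node libraries. The 8 myeloid markers summed to 199 to 359 CPM, of which Cst3 alone gave 193 to 270, with S100a9 at 0 in every library. Among them Lyz2, the macrophage lysozyme gene, was at 108 CPM (392 UMIs) in lymph node replicate 2 and at 0.839 to 18.0 elsewhere, and its part in the results was not tested. The 4 NK cell markers summed to 8.95 to 13.9 CPM in liver and spleen and to 1.35 and 3.59 in lymph node. Pairs of libraries shared 6 to 20 cell barcodes, where 9.58 to 11.1 would be shared by chance among the barcodes of the kit. The highest count, 20, was that of spleen replicate 2 with lymph node replicate 2, where 10.4 would be shared by chance. The next was 15 against 10.6, for spleen replicate 1 with lymph node replicate 2, and the part of this in the results was not tested.

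IL-12 and IL-18 are made by dendritic cells and macrophages during infection, and together they can drive iNKT cells to release interferon-gamma without a strong antigen signal. The IL-12 receptor signals through the Janus kinases Jak2 and Tyk2 to Stat4, the IL-18 receptor through the adaptor Myd88 and IRAK kinases to NF-kB, and the interferon-gamma receptor through Jak1 and Jak2. Il12rb2 is the chain that restricts IL-12 responses among T cells, while Il12rb1 is shared with the receptor for IL-23.

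To compare the organs, UMIs were summed per library and tested with edgeR over 10248 genes, and genes with an adjusted p (Benjamini-Hochberg) under 0.05 were called. Levels are given in CPM, and fold changes on the log2 scale for liver against another organ or spleen against lymph node, positive where the organ named first is higher unless a direction is given in words. Of the 7 genes, 6 were called between liver and lymph node, where 37.6% of all genes tested were called. Between liver and spleen 5 were called, against 25.9% of all genes, and for spleen against lymph node 4 were called, where the share over all genes was 18.2%. By direction, liver was higher for 4 members and lower for 2 against lymph node (18.0% and 19.6% of all genes) and higher for 3 and lower for 2 against spleen (12.8% and 13.1%), and spleen was higher for 2 and lower for 2 against lymph node (7.91% and 10.3%). The 3 comparisons share libraries, since each organ enters 2 of them. In bulk sums of this kind a lower share of cells with a transcript and less of it per cell cannot be told apart. The same fits were made on cells of clusters named iNKT1-like and iNKT17-like, formed without the 7 genes and without the pathway genes given further on. The pathway gene Tbx21 was, however, among the markers by which formed clusters were named iNKT1-like.

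**Figure D1:**
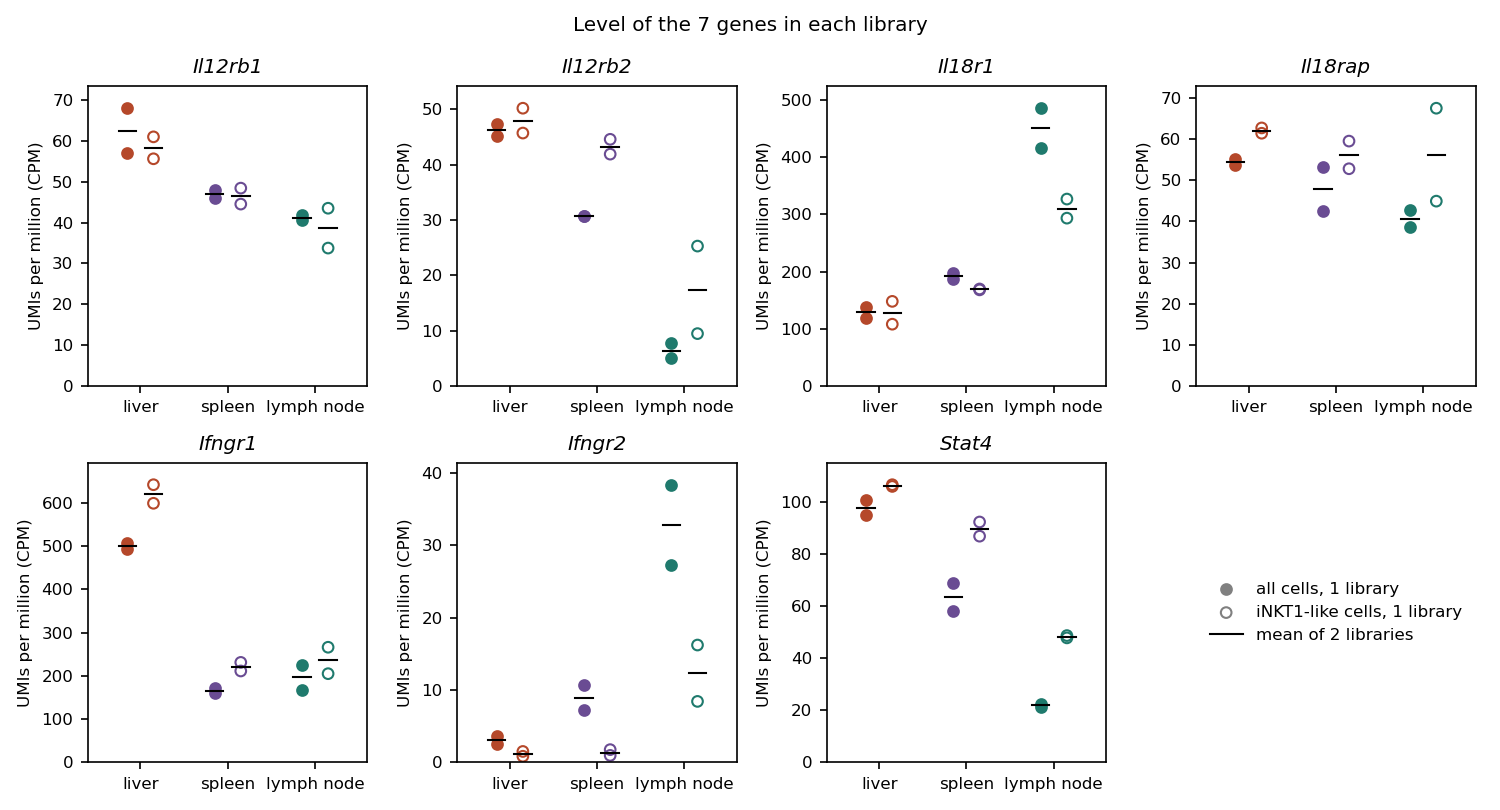
Level of each of the 7 genes (CPM) in each of the 6 libraries, for all cells (filled points) and for iNKT1-like cells (open points), with black lines at the mean of the 2 libraries of an organ. Il12rb2 and Stat4 are lowest and Il18r1 and Ifngr2 highest in both lymph node libraries, and Ifngr1 is highest in both liver libraries.

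Il12rb2 (ENSMUSG00000018341), the signalling chain of the IL-12 receptor, was far lower in lymph node than elsewhere. It lies on the minus strand at chr6:67291318-67376188 of GRCm38, overlapping Serbp1 on the other strand. Its level was 45.2 and 47.4 CPM in the liver libraries, 30.7 and 30.7 in spleen, with 7.83 and 4.97 for lymph node, from 605, 228 and 47 UMIs per organ. The lymph node libraries lay well below the other 4, spleen lay between, and no organs overlapped. The log2 fold change was 2.78 ± 0.22 (SE) for liver against lymph node, or 6.89-fold (edgeR adjusted p = 1.95e-12), and 2.27 ± 0.23 for spleen against lymph node, or 4.83-fold (adjusted p = 3.04e-09). For liver against spleen it was 0.51 ± 0.16, with an edgeR adjusted p of 0.0209. That call was lost with DESeq2 (adjusted p = 0.152) and when any 1 of the 4 liver and spleen libraries was left out (adjusted p 0.0522 to 0.0982).

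Among iNKT1-like cells, the class marked by Tbx21, Il2rb and NK receptor genes, Il12rb2 stood at 50.2 and 45.7 CPM in liver, 41.9 and 44.6 in spleen, with 25.3 and 9.45 for lymph node. Here liver and spleen lay close together while both lymph node libraries were lower, and these rested on 18 and 7 UMIs. The log2 fold change was 1.38 ± 0.29 for liver against lymph node (edgeR adjusted p = 2.42e-04) and 1.31 ± 0.30 for spleen against lymph node (adjusted p = 0.00188). Without lymph node replicate 2 neither was called (0.83, adjusted p = 0.125, and 0.75, adjusted p = 0.294), and the spleen comparison was not called without spleen replicate 2 either (1.25, adjusted p = 0.0549). Between liver and spleen the difference was 0.07 on the log2 scale, with 2 SE either way reaching from -0.28 to 0.42, and it was not called (adjusted p = 0.820). When iNKT17-like cells were left out of the sums over all cells, Il12rb2 remained 2.18 higher in liver than in lymph node on the log2 scale (edgeR adjusted p = 2.38e-10). The iNKT1-like cells were 61.2% to 70.5% of the cells in each liver and spleen library and 24.7% and 26.9% in lymph node. The part of these shares in the differences over all cells was not tested.

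Because Il12rb2, Il18r1, Ifngr1 and Ifngr2 carried the largest organ differences of the receptor chains, the 250 bases before their RefSeq start sites (GRCm38.p6) were searched for 4 motifs on both strands. These were the STAT site called GAS (TTCNNNGAA), a T-box half-site (AGGTGT), an AP-1 site (TGANTCA) and an NF-kB site (GGGA, then any 2 bases, then TTCC). Of 32851 promoter windows of the same length, 7.02% held the first, 11.8% the second, 6.75% the next and 1.21% the last. The window of Il12rb2, on the minus strand at chr6:67376189-67376438, held 1 GAS match, in capitals, that begins 123 bases before the start site. A match says only that the letters are present.
Il12rb2: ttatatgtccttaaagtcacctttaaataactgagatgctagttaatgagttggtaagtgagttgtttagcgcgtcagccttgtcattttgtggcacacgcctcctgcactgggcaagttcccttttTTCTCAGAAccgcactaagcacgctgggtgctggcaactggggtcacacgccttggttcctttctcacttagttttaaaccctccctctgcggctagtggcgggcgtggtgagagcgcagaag

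Il12rb1 (ENSMUSG00000000791, chr8:70808449-70821424, plus strand), the chain shared with the IL-23 receptor, differed less between organs. It was measured at 68.0 and 57.0 CPM in liver, 48.1 and 46.1 in spleen, with 41.9 and 40.6 for lymph node. The liver libraries were highest and the order of the organs did not overlap, although spleen and lymph node were close. Liver exceeded lymph node by 0.54 ± 0.14 on the log2 scale (edgeR adjusted p = 0.00295). Liver against spleen (0.33 ± 0.14, adjusted p = 0.0796) and spleen against lymph node (0.21 ± 0.15, adjusted p = 0.380) were not called, the former being called without liver replicate 2 (0.44, adjusted p = 0.0452) and with library totals as the scale (0.41, adjusted p = 0.0365). In iNKT1-like cells the gene ranged from 33.8 CPM in a lymph node library to 61.0 in a liver library, and none of the 3 differences was called (edgeR adjusted p 0.101 to 0.608). Over 18 alternatives the liver against lymph node difference there ranged from 0.28 to 0.83, and its call was gained under an alternative setting. The UMIs of Il12rb1 for each UMI of Il12rb2 were 1.51 and 1.2 in liver, 1.57 and 1.5 in spleen, with 5.34 and 8.17 for lymph node, a ratio given without a test.

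Stat4 (ENSMUSG00000062939, chr1:51987148-52107189, plus strand), which carries the IL-12 signal to the nucleus, followed the same order as Il12rb2. It overlaps Gm28177 on the same strand and Gm3940 on the other, so the assignment of reads in the stretch shared with Gm28177 is uncertain. Its level was 94.9 and 100.4 CPM in liver, 68.9 and 58.1 in spleen, with 21.3 and 22.3 for lymph node. The organs did not overlap, and the lymph node libraries were far below the rest. Stat4 exceeded its lymph node level 4.28-fold in liver (log2 2.10 ± 0.15, edgeR adjusted p = 3.53e-13) and 2.94-fold in spleen (1.56 ± 0.16, adjusted p = 3.21e-09). Liver exceeded spleen by 0.54 ± 0.13 (adjusted p = 0.00275), a call lost without spleen replicate 2 (0.45, adjusted p = 0.0574). In iNKT1-like cells Stat4 stood at 106 and 106 CPM in liver, 92.2 and 86.7 in spleen, with 47.7 and 48.6 for lymph node. The lymph node libraries were again lowest, by 1.04 ± 0.19 against liver (edgeR adjusted p = 2.70e-05) and by 0.88 ± 0.20 against spleen (adjusted p = 0.00145). Between liver and spleen the difference of 0.16 ± 0.14 was not called (adjusted p = 0.416). The summed level of NK cell markers, which was also lowest in lymph node as given above, moved with Il12rb2 and Stat4, and its part in these results was not tested. Single markers did not all follow the sum, since Klra8 was at 1.66 CPM in lymph node replicate 2 and 0.826 in liver replicate 2.

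**Figure D2:**
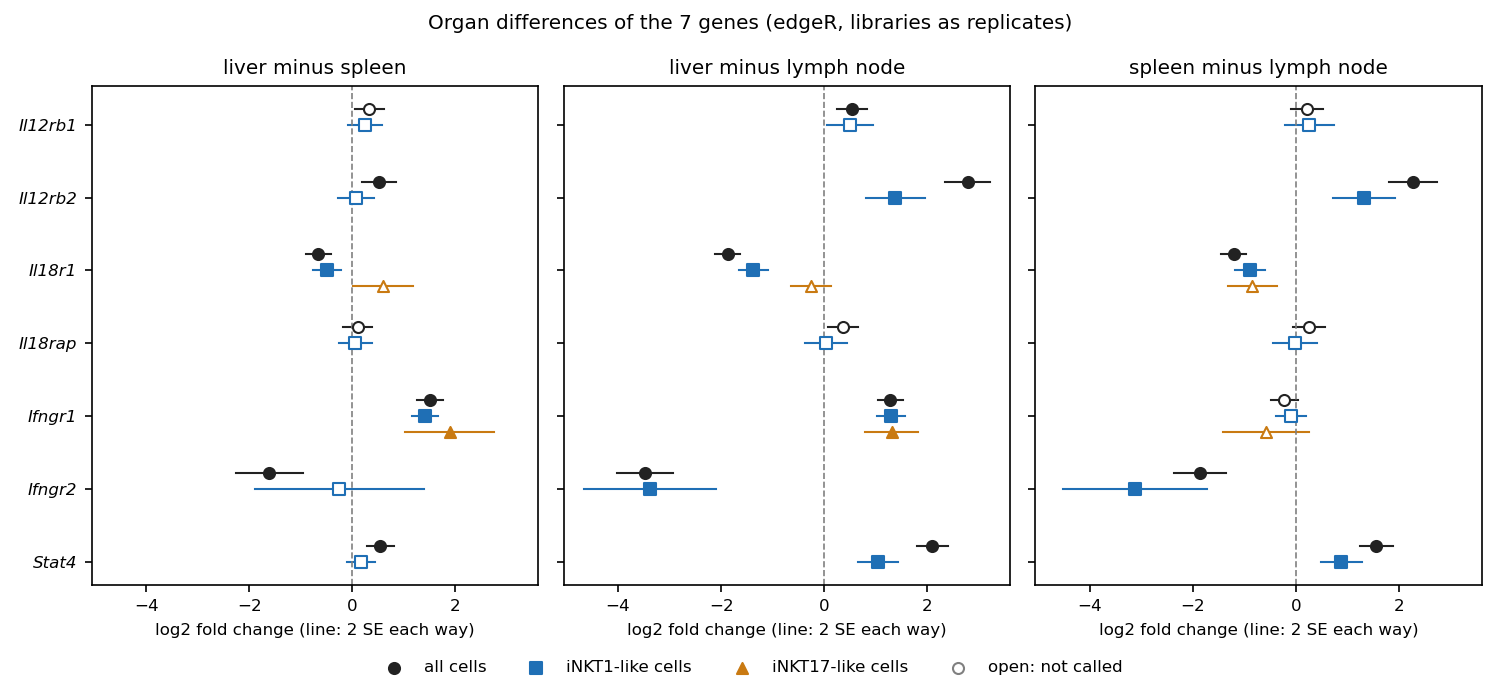
Log2 fold change of each gene for each pair of organs, with lines of 2 standard errors each way, in all cells (black circles), iNKT1-like cells (blue squares) and iNKT17-like cells (orange triangles, only the 2 genes that passed the filter there). Filled symbols were called by edgeR at an adjusted p below 0.05. Il18rap is open in every panel, and Ifngr1 is filled in both comparisons with liver for all 3 sets of cells.

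The IL-18 receptor chains differed from each other. Il18r1 (ENSMUSG00000026070, chr1:40465552-40500854, plus strand), which binds the cytokine, was highest in lymph node and lowest in liver. It stood at 119 and 138 CPM in liver, 198 and 187 in spleen, with 416 and 486 for lymph node, from 1673, 1429 and 3300 UMIs. Each organ was separate from the next, with the lymph node libraries far above. The lymph node level of Il18r1 was 3.66-fold that of liver (liver minus lymph node -1.87 ± 0.12 on the log2 scale, edgeR adjusted p = 2.78e-14) and 2.31-fold that of spleen (spleen minus lymph node -1.21 ± 0.12, adjusted p = 1.72e-09). It was also lower in liver than in spleen (-0.66 ± 0.12, adjusted p = 1.63e-04). Of the lymph node cells, 851 and 986 per library were iNKT17-like, the class with the highest Il18r1 level, against 15 to 31 in each other library. Without those cells the liver against lymph node difference was -1.39 (adjusted p = 7.19e-12) and the spleen against lymph node difference -0.72 (adjusted p = 3.40e-05).

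Within iNKT1-like cells Il18r1 kept this order. The level was 108 and 148 CPM in liver, 168 and 169.6 in spleen, with 293 and 327 for lymph node. The organs did not overlap, and the liver libraries differed more from each other than did those of spleen. The log2 fold change was -1.37 ± 0.14 for liver against lymph node (edgeR adjusted p = 8.62e-11), -0.89 ± 0.14 for spleen against lymph node (adjusted p = 1.07e-05) and -0.49 ± 0.13 for liver against spleen (adjusted p = 0.00665). The last call was lost with DESeq2 (adjusted p = 0.069) and without liver replicate 1 (-0.23, adjusted p = 0.313), spleen replicate 1 (-0.51, adjusted p = 0.077) or spleen replicate 2 (-0.45, adjusted p = 0.146).

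Il18rap (ENSMUSG00000026068, chr1:40515362-40551705, plus strand), the accessory chain needed for signalling, begins 14507 bases beyond the end of Il18r1 and showed no such gradient. It was measured at 55.1 and 53.7 CPM in liver, 53.3 and 42.5 in spleen, with 38.6 and 42.8 for lymph node. Spleen overlapped lymph node, and the liver libraries lay just above the higher spleen library. None of the 3 comparisons was called (edgeR adjusted p = 0.634 for liver against spleen, 0.0528 for liver against lymph node and 0.285 for spleen against lymph node). The liver against lymph node difference of 0.36 ± 0.15 on the log2 scale sat at the threshold, and 6 of the 16 alternatives called it. In iNKT1-like cells the largest of the differences was 0.06 on the log2 scale, with 2 SE either way of -0.26 to 0.38 for liver against spleen. Over 18 alternatives the liver against lymph node difference there ranged from -0.26 to 0.43, and a call was gained under an alternative setting. The UMIs of Il18r1 for each UMI of Il18rap were 2.15 and 2.58 in liver, 3.71 and 4.40 in spleen, with 10.8 and 11.4 for lymph node, and in iNKT1-like cells 1.76 and 2.36, 2.82 and 3.21, and 6.53 and 4.84.

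The first RefSeq window of Il18r1, on the plus strand at chr1:40465302-40465551, held none of the 4 motifs, nor did that of Il18rap. It is shown because Il18r1 and Il18rap are neighbours that differed in their organ pattern. Of the windows of 2 later start sites of Il18r1, that at chr1:40465756-40466005 held 2 GAS matches.
Il18r1: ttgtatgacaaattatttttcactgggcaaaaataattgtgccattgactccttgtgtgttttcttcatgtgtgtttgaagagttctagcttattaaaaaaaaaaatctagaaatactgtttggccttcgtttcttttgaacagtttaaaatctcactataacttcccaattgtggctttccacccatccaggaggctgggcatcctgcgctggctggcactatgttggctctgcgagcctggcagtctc

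The interferon-gamma receptor chains ran in opposite directions between liver and lymph node. Ifngr1 (ENSMUSG00000020009, chr10:19591949-19610229, plus strand), which binds interferon-gamma, was highest in liver. Its level was 494 and 508 CPM in liver, 161 and 171 in spleen, with 168 and 226 for lymph node, from 6550, 1232 and 1440 UMIs. Both liver libraries were above every other library, while spleen and lymph node overlapped. Ifngr1 was 2.85-fold higher in liver than in spleen (log2 1.51 ± 0.13, edgeR adjusted p = 1.98e-10) and 2.44-fold higher than in lymph node (1.29 ± 0.13, adjusted p = 5.86e-10), and spleen against lymph node was not called (-0.23 ± 0.13, adjusted p = 0.252). In iNKT1-like cells it stood at 599 and 642 CPM in liver, 211 and 231 in spleen, with 205 and 266 for lymph node. There the log2 fold change was 1.40 ± 0.13 against spleen (edgeR adjusted p = 4.15e-13) and 1.30 ± 0.14 against lymph node (adjusted p = 3.39e-11). Liver cells had the deepest libraries, and with libraries thinned to an equal total both of these differences were still called. Over 16 alternatives in all cells and 18 in iNKT1-like cells, the liver against spleen difference ranged from 1.45 to 1.59 in all cells and from 1.33 to 1.5 in iNKT1-like cells.

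Ifngr2 (ENSMUSG00000022965, chr16:91547072-91565623, plus strand), the chain that joins the bound receptor to start the signal, was highest in lymph node. It was sparse, with 40 UMIs over the liver libraries, 66 over those of spleen and 240 over those of lymph node. Its level was 2.56 and 3.63 CPM in liver, 7.28 and 10.6 in spleen, with 27.3 and 38.3 for lymph node. The organs did not overlap, and each step up was larger than the gap within either organ it joins. The log2 fold change was -3.47 ± 0.27 for liver against lymph node, an 11.1-fold difference (edgeR adjusted p = 2.94e-12), -1.86 ± 0.25 for spleen against lymph node (adjusted p = 1.02e-06) and -1.61 ± 0.33 for liver against spleen (adjusted p = 4.55e-04). In iNKT1-like cells it rested on 10, 6 and 18 UMIs per organ, at 1.51 and 0.852 CPM in liver, 1.76 and 0.969 in spleen, with 8.43 and 16.2 for lymph node. Lymph node again lay above, by 3.38 ± 0.64 on the log2 scale against liver (edgeR adjusted p = 5.79e-05) and by 3.13 ± 0.70 against spleen (adjusted p = 0.00140), and liver overlapped spleen (adjusted p = 0.859). Without lymph node replicate 2 neither was called (adjusted p = 0.072 and 0.218), and the comparison with spleen was also not called without spleen replicate 2 (adjusted p = 0.0631). For each UMI of Ifngr2 there were 193 and 140 UMIs of Ifngr1 in liver, 22.1 and 16.1 in spleen, with 6.15 and 5.89 for lymph node. Cells with markers of recent thymic emigrants (RTE-like) held 18 and 27 of the Ifngr2 UMIs of the spleen libraries. They were 18.6% and 17.1% of spleen cells against 2.89% and 3.64% of liver cells, and their part in the difference over all cells was not tested.

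The promoter windows of this pair are shown because the genes moved in opposite directions. That of Ifngr1 (plus strand, chr10:19591699-19591948) held none of the 4 motifs. That of Ifngr2 (plus strand, chr16:91546809-91547058) held 1 T-box half-site and 1 NF-kB match, the latter on the opposite strand, both in capitals. The windows of Stat4 held none of the 4.
Ifngr1: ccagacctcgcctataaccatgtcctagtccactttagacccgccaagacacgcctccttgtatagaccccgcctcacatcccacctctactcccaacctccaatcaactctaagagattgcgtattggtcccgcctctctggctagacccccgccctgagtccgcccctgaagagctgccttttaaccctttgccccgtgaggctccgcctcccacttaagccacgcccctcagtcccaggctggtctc
Ifngr2: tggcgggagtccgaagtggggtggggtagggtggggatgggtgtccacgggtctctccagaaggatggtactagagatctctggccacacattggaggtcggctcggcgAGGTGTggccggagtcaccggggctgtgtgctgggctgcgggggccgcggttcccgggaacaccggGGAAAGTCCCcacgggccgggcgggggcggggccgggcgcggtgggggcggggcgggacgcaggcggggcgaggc

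The iNKT1-like comparisons rest on different clusters in each organ. Cluster 1 held 1703 and 1447 of the 1879 and 1751 iNKT1-like liver cells, cluster 0 held 1653 and 1739 of the 1878 and 1871 spleen cells, and a sub-cluster of cluster 2 held 533 and 546 of the 651 and 767 lymph node cells. Whole clusters were named by their iNKT1 markers against all other cells. The sub-cluster was named against the rest of cluster 2 alone, at a median log2 difference of at least 0.5. The class was thus not set by the same rule in each organ, and at resolution 1.0 it held 277 and 461 lymph node cells. Of 9280 genes tested there, 23.2% were called for liver against spleen (11.5% higher and 11.7% lower in liver), with 2 of the 7 members, 1 higher and 1 lower. For liver against lymph node 20.4% were called (8.94% higher, 11.5% lower), with 5 members, 3 higher and 2 lower. For spleen against lymph node 7.87% were called (2.79% higher, 5.08% lower), with 4 members, 2 in each direction. Cluster 2 as a whole was made up of 2676 cells, 2582 of them from lymph node. When its iNKT1-like cells were left out, an alternative added after seeing the data, Ifngr1, Il18r1 and Stat4 were still called between liver and lymph node, and only Il18r1 between spleen and lymph node. Over 18 alternatives, this among them, the spleen against lymph node difference of Stat4 ranged from 0.81 to 1.56 (0.88 in the main fit). That of Il12rb2 ranged from 0.75 to 2.175 (1.31 in the main fit).

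In iNKT17-like cells, marked by Ccr6, Aqp3 and Il17re, only Ifngr1 and Il18r1 passed the filter, since liver and spleen held 15 to 31 such cells per library. Of the 1318 genes tested, 1.52% were called for liver against spleen (1.21% higher and 0.303% lower in liver), 12.3% for liver against lymph node (6.22% and 6.07%) and 1.82% for spleen against lymph node (0.607% and 1.21%), where the members called were 1, 1 and 0, both in the higher direction. Ifngr1 stood at 520 and 812 CPM in liver, 231 and 142 in spleen, with 233 and 316 for lymph node. Both liver libraries were again above every other library. The log2 fold change of Ifngr1 was 1.31 ± 0.26 for liver against lymph node (edgeR adjusted p = 0.00400) and 1.89 ± 0.43 for liver against spleen (adjusted p = 0.0437). Both calls were lost without liver replicate 2 (0.88, adjusted p = 0.0986, and 1.46, adjusted p = 0.0799), the latter also without spleen replicate 2 (1.62, adjusted p = 0.205), and the former with libraries thinned to an equal total (0.78, adjusted p = 0.227).

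Il18r1 in iNKT17-like cells was at 672 and 542 CPM in liver, 385 and 454 in spleen, with 658 and 746 for lymph node. Spleen was lowest, and liver overlapped lymph node. None of the differences was called (edgeR adjusted p = 0.413 for liver against spleen, 0.433 for liver against lymph node and 0.0947 for spleen against lymph node). Spleen against lymph node was called in 4 of its 16 alternatives, namely without a filter, with the replicate block and without either liver library (edgeR adjusted p = 0.00816 to 0.0411). The liver against lymph node difference was -0.25 in iNKT17-like cells and -1.37 in iNKT1-like cells, each from the fit of that class alone. The interaction of class and organ came from a joint fit of both classes with its own scaling and the library as a block, so that it is not the difference of these values. Tested with edgeR over 8923 genes of which 0.65% were called, it was 0.83 ± 0.22 on the log2 scale (adjusted p = 0.0350). It was not called in 6 of its 14 alternatives, among them leaving out liver replicate 1 or either lymph node library, where the adjusted p was 0.0887 to 0.926, and it was 1.59 (adjusted p = 0.0169) with libraries thinned to an equal total. No other member had a called interaction, and of these only Ifngr1 had enough UMIs in both classes to be read, at -0.26 ± 0.20 for liver against lymph node (adjusted p = 0.841).

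Levels by class are a description, since the clusters come from the same cells. The Il18r1 level had a median over libraries of 542 CPM in iNKT17-like cells (385 to 746), 240.3 in cells with markers of recent thymic emigrants (RTE-like), 183 in interferon-responding (Ifit-like) cells and 169 in iNKT1-like cells. The iNKT2-like cells reached the minimum of 20 cells only in the lymph node libraries, where they stood at 320.5 and 420.5. This overlapped iNKT1-like cells of lymph node at 293 and 327. The median of NF-kB-like cells was 57.9 (49.7 to 94.1), over the 4 liver and spleen libraries alone, since lymph node held 16 and 12 such cells, under the minimum of 20. Within each of the 5 libraries with at least 20 iNKT17-like cells, Il18r1 was 2.24 to 3.66 times as high in those cells as in iNKT1-like cells. In RTE-like cells the order of the organs was not that of iNKT1-like cells. There Il18r1 stood at 435 and 253 CPM in liver, 295 and 211 in spleen, with 219 and 228 for lymph node, so that liver lay above lymph node and spleen overlapped both, with no test run. With each cell thinned to 1000 UMIs the organs overlapped. The shares of RTE-like cells with Il18r1 were then 27.2% and 11.5% in liver, 17.3% and 13.3% in spleen, with 12.0% and 14.7% for lymph node.

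Il12rb2 was low in the classes where Il18r1 was high. Its median over all 6 libraries was 43.9 CPM in Ifit-like, 43.2 in iNKT1-like, 12.7 in cycling and 7.20 in RTE-like cells. Over the 4 liver and spleen libraries with NF-kB-like cells it was 47.9 (0 to 67.9), where the spleen libraries held 4 and 0 UMIs. Cycling cells were low in Il12rb2 without being high in Il18r1, which had a median of 144 CPM there against 169 in iNKT1-like cells. The iNKT17-like cells had 2 UMIs of Il12rb2 over 1931 cells, and the iNKT2-like cells had none, which allows up to 9.71 and 10.2 CPM (3 counts) in the lymph node libraries. In lymph node it was also lower in Ifit-like cells (8.04 and 23.9 CPM, against 43.9 to 46.2 in liver and spleen), although from 1 and 2 UMIs. Il12rb1 stood at 107 and 72.8 CPM in NF-kB-like cells of liver and at 82.4 or above in those of spleen (7 and 6 UMIs), overlapping Ifit-like cells of the same organs at 110 and 71.8, with 87.9 and 52.9 for spleen. In iNKT17-like cells it was present at 56.7 CPM (38.5 to 90.3), overlapping iNKT1-like cells at 46.5 (33.8 to 61.0).

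Stat4 had a median of 89.5 CPM in iNKT1-like cells (47.7 to 106) and stood at 63.3 to 89.8 in the NF-kB-like cells of liver and spleen. In iNKT17-like cells it was at 10.2 and 11.1 CPM in lymph node, against 47.7 and 48.6 in iNKT1-like cells there, and at 3.39 and 6.48 in iNKT2-like cells. In liver replicate 2 the iNKT17-like cells held 90.3 CPM from 6 UMIs, against 106 in iNKT1-like cells. In liver the thinned shares of 4.76% (exact 95% interval 0.582% to 16.2%) and 6.58% (5.80% to 7.44%) in these classes could not be set apart. Ifngr2 ran the other way. In lymph node it stood at 8.43 and 16.2 CPM in iNKT1-like cells, 42.4 and 48.2 in iNKT17-like cells (5.04 and 2.97 times as high) and 25.9 and 47.5 in iNKT2-like cells. In liver and spleen it was at 0.852 to 1.76 in iNKT1-like cells and at 15.0 to 28.4 in the iNKT17-like cells of the 3 libraries with at least 20 of them, each from 1 UMI. In RTE-like cells Ifngr2 was at 16.0 to 32.8 CPM over the libraries of all organs, and lymph node did not lie above the others. These levels rested on 4 and 4 UMIs in liver, 18 and 27 in spleen, with 3 and 4 for lymph node. For Ifngr1 the liver libraries were above those of both other organs in iNKT1-like, Ifit-like, RTE-like and cycling cells, as was liver replicate 2 in iNKT17-like cells. In NF-kB-like cells they were above those of spleen (230 and 233 CPM against 94.1 and 47.5), with no lymph node library to compare. These spleen values rested on 8 and 3 UMIs. Il18rap had medians of 19.9 CPM in iNKT2-like to 60.5 in iNKT1-like cells.

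**Figure D3:**
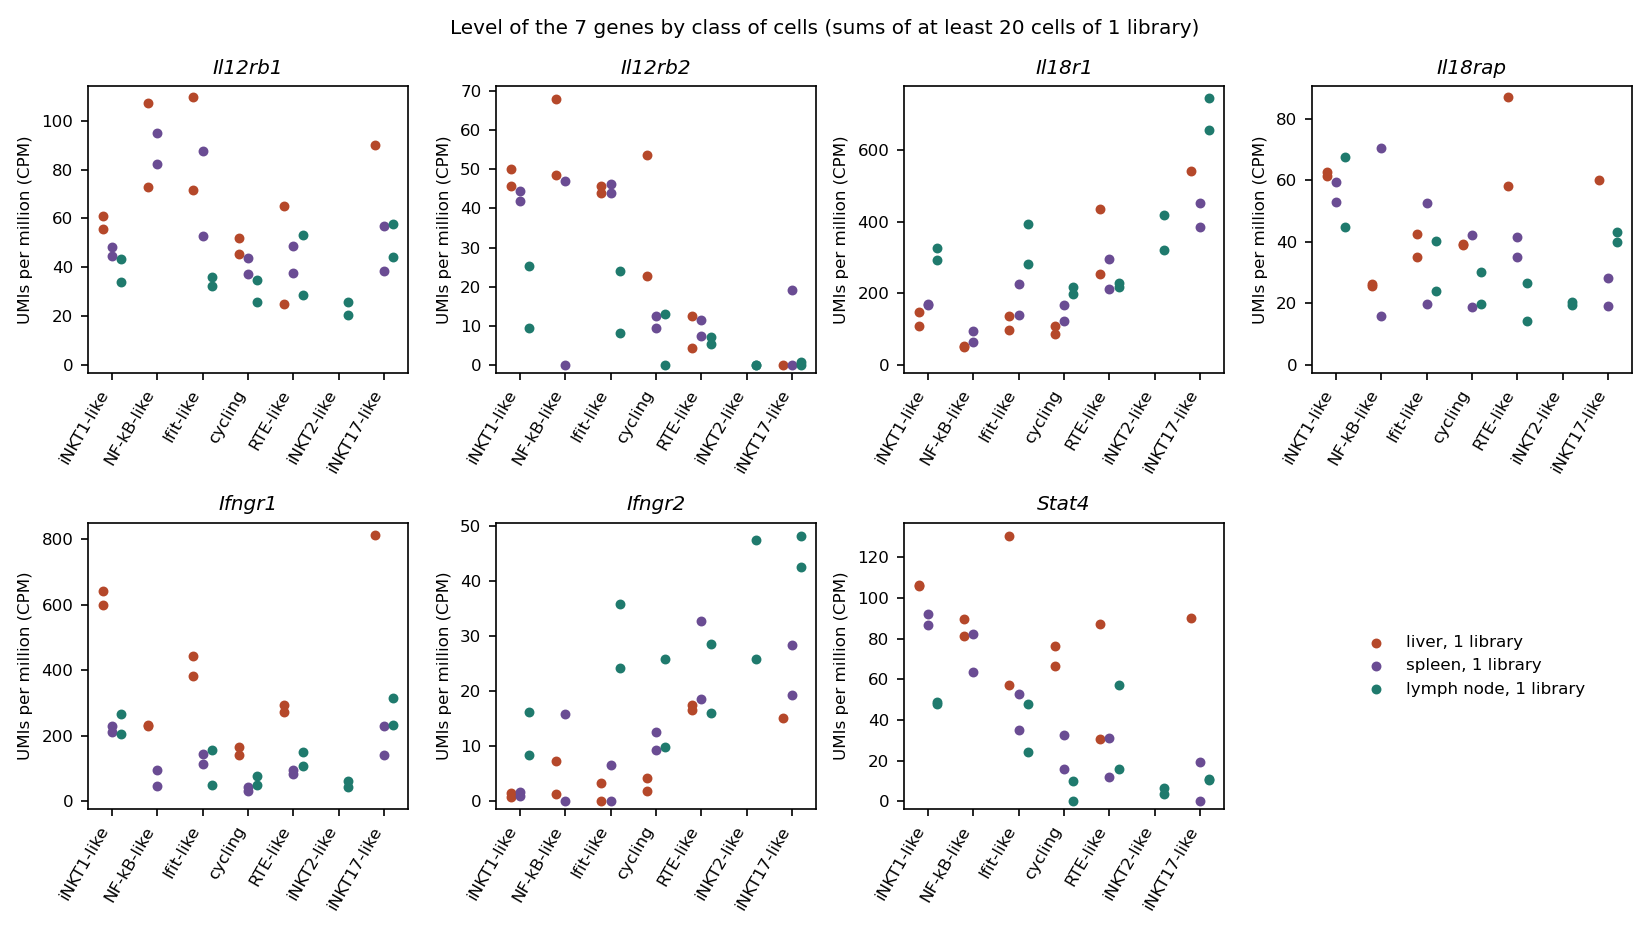
Level (CPM) of each gene in 7 named classes of cells, each point 1 library with at least 20 cells of that class, coloured by organ. Il18r1 is highest in iNKT17-like cells of each library that has them and, in lymph node, Ifngr2 in iNKT17-like and iNKT2-like cells, where Il12rb2 is at or near 0, and liver points of Ifngr1 lie above the others in each class that has them, which for NF-kB-like cells are spleen points alone.

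Shares of cells with at least 1 UMI were compared after each cell was thinned to 1000 UMIs, which left out 9 liver, 313 spleen and 753 lymph node cells. Shares are means ± SD of 2 libraries, and 2 against 2 cannot give an exact permutation p below 0.33. Il12rb2 was found in 3.15 ± 0.26% of the cells from liver, in 2.37 ± 0.23% from spleen and in 0.486 ± 0.15% from lymph node, and Stat4 in 6.74 ± 0.79%, 4.78 ± 0.19% and 1.78 ± 0.43%. Il18r1 was found in 8.14 ± 0.30% of the cells from liver, in 11.7 ± 0.29% from spleen and in 27.8 ± 3.0% from lymph node. Each of these had its lymph node libraries outside the range of the other 4.

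Ifngr1 was found in 27.1 ± 0.33% of the cells from liver, in 11.8 ± 0.33% from spleen and in 12.9 ± 3.0% from lymph node, and Ifngr2 in 0.106%, 0.514 ± 0.13% and 2.47 ± 0.58%. The shares of Il12rb1 (2.79% to 3.76%) and Il18rap (3.13% to 3.66%) differed between organs by about the spread of the libraries. Without thinning the liver shares were higher, at 55.3% for Ifngr1, 19.6% for Stat4, 13.1% for Il12rb1, 11.3% for Il18rap and 9.79% for Il12rb2, at the greater depth of those cells. The order of liver and spleen turned for Il18r1, at 20.96% and 20.03% unthinned against 8.14% and 11.7% thinned.

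A small cluster led by Lyz2 and Cd79a, B cell and myeloid genes, gave a view of the background, mostly that of liver. Of its 29 cells 20 came from liver, 3 from spleen replicate 1, and 1 and 5 from the lymph node libraries. Of 26 such cells thinned (median depth 1934 UMIs, against 2055 for all cells), none had Il12rb1, Il18r1 or Stat4, and 1 each had Il12rb2, Il18rap and Ifngr2. Unthinned, Il18r1 was found in 4 of the 29 cells (13.8%, exact 95% interval 3.89% to 31.7%), Il18rap in 2, Stat4 in 1 and Il12rb1 in none. Ifngr1, a gene that those cells also express, was found in 10 of the 26 thinned and 15 of the 29 unthinned cells. With so few cells a share of some percent cannot be set apart from background there. Within lymph node, Il12rb2 was in none of 1735 thinned iNKT17-like cells (exact 95% interval up to 0.212%) and in 13 of 1112 iNKT1-like cells (1.17%, 0.624% to 1.99%), at median depths of 1847 and 1378 UMIs. In liver and spleen, with 42 and 52 thinned iNKT17-like cells, intervals reached 8.41% and 10.3% and the classes could not be set apart. Intervals and limits cover counting error only.

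**Figure D4:**
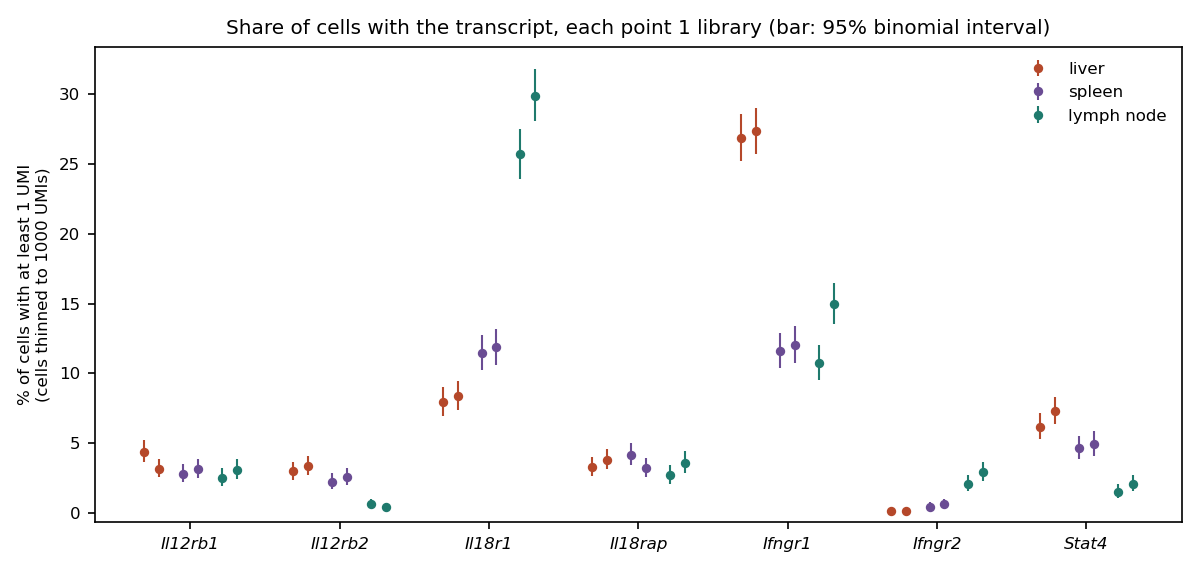
Share of cells (%) with at least 1 UMI of each gene after thinning to 1000 UMIs per cell, each point 1 library with its exact 95% binomial interval, coloured by organ. Il18r1 and Ifngr2 are highest in lymph node, Ifngr1 is highest in liver, and Il12rb2 and Stat4 are lowest in lymph node.

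Both chains of a receptor were rarely captured in the same cell. Of the thinned liver cells 26 held Il18r1 and Il18rap, where the product of the shares gives 16.3, and the counts were 28 against 21.6 in spleen, with 47 against 41.6 for lymph node. For Il12rb1 and Il12rb2 the counts were 7 against 6.61 in liver, 4 against 3.54 in spleen, with 0 against 0.627 for lymph node, and for Ifngr1 and Ifngr2 they were 3 against 1.63, 2 against 3.08 and 15 against 15.4. All 3 of these liver cells came from liver replicate 1, and the lymph node libraries went opposite ways, at 1 against 5.27 and 14 against 10.2. For the IL-18 receptor the count was above the product in each of the 6 libraries, although in iNKT1-like cells it was below the product in liver replicate 2 (5 against 6.00) and lymph node replicate 1 (3 against 3.31). For Il12rb2 and Stat4 the counts were 10 against 12.05 in liver, 11 against 5.74 in spleen, with 2 against 0.393 for lymph node. No test was run on these counts.

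Genes with a pattern most like each member were found by Pearson's r of log2 CPM over 41 sums of a library and class, among 3351 genes. The sums share libraries, depth and classes, so r is a description. Il18r1 was closest to Il7r (r = 0.898), Prr13 (0.868) and Smpdl3a (0.864), Ifngr1 to Socs2 (0.880), Ogt (0.799) and Selplg (0.770), and Ifngr2 to Rgcc (0.904), Capg (0.854) and Icos (0.832). Stat4 was closest to Gimap3 (0.875), Gimap8 (0.861) and Klrb1c (0.860), and Il12rb2 to Klrc1 (0.802), Rcbtb2 (0.765) and Gimap7 (0.756). The values were lower for Il12rb1, with Irf1 (0.692), Socs1 (0.678) and Sesn1 (0.661), and for Il18rap, with Itpr2 (0.669), Ctsd (0.657) and Id2 (0.638). Among the members, Il12rb2 and Stat4 had an r of 0.623 and Ifngr2 and Il18r1 of 0.706, whereas Ifngr2 and Il12rb2 had -0.753 and Il18r1 and Il18rap 0.0244.

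A list of 51 other genes of these pathways was read alongside, of which 45 were tested in all cells. For liver against lymph node 25 were higher and 6 lower in liver, with a median log2 fold change of 0.49 against 0.0064 over all genes tested, of which 18.0% were called higher and 19.6% lower. For liver against spleen 20 were higher and 3 lower in liver (median 0.43, against 0.020 over all genes, with 12.8% called higher and 13.1% lower). For spleen against lymph node 8 were higher and 10 lower in spleen (median 0.10, against 0.0037, with 7.91% and 10.3% of all genes called).

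Of the ligands only Ifng passed the filter, while Il12a, Il12b and Il18 had 0 to 3 UMIs per library. Ifng stood at 106 and 160.2 CPM in liver, 73.6 and 55.6 in spleen, with 125 and 106 for lymph node. It was lower in spleen than in liver (liver minus spleen 0.96 ± 0.23, edgeR adjusted p = 0.0145) and than in lymph node (-0.82 ± 0.23, adjusted p = 0.0405), and liver overlapped lymph node (0.14 ± 0.21, adjusted p = 0.648). In iNKT1-like cells, by contrast, Ifng was at 89.6 and 129 CPM in liver, 84.7 and 68.3 in spleen, with 282 and 244 for lymph node. There it was highest in lymph node, by 1.37 ± 0.16 against liver (edgeR adjusted p = 6.81e-09) and by 1.79 ± 0.17 against spleen (adjusted p = 1.04e-10), and higher in liver than in spleen by 0.42 ± 0.16 (adjusted p = 0.0467). The immediate early genes given above were also highest in the lymph node libraries, and their part was not tested.

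All 3 Janus kinases were higher in liver than in lymph node, by 0.38 ± 0.11 for Jak1, 0.68 ± 0.15 for Jak2 and 0.79 ± 0.20 for Tyk2 on the log2 scale (edgeR adjusted p = 0.00780, 3.72e-04 and 0.00221). Tyk2 was also higher in liver than in spleen (0.52 ± 0.20, adjusted p = 0.0485) and Jak2 higher in spleen than in lymph node (0.51 ± 0.15, adjusted p = 0.0181), while Jak1 was called in neither (0.24, adjusted p = 0.113, and 0.14, adjusted p = 0.447). Of all genes tested 18.0% were called higher in liver than in lymph node, 12.8% higher in liver than in spleen and 7.91% higher in spleen than in lymph node. In iNKT1-like cells no Janus kinase was called in any comparison (edgeR adjusted p 0.107 to 0.998). Of all genes tested there, 20.4% were called for liver against lymph node, 23.2% for liver against spleen and 7.87% for spleen against lymph node.

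Among 15 genes known to be induced by IL-12, IL-18 or interferon-gamma, 13 were tested, and 10 were higher and 3 lower in liver than in lymph node, beside 18.0% and 19.6% of all genes. The higher ones included Cxcl10, an interferon-induced chemokine (2.34 ± 0.20 on the log2 scale, edgeR adjusted p = 4.75e-11), Tbx21, the type 1 transcription factor T-bet (2.08 ± 0.15, adjusted p = 2.70e-13), and the guanylate-binding protein gene Gbp3 (1.75 ± 0.27, adjusted p = 3.50e-05). The 3 lower ones were Gadd45b, Gadd45g and Furin, and Gadd45b, a stress-response gene, fell by 1.96 ± 0.15 (adjusted p = 1.20e-12). Against spleen, 11 were higher and 1 lower in liver, beside 12.8% and 13.1% of all genes, led by Cxcl10 (2.48 ± 0.21), Nlrc5, an activator of MHC class I genes (1.45 ± 0.19), Gadd45b (1.45 ± 0.19), Gbp3 (1.10 ± 0.25) and Igtp (0.97 ± 0.12), with edgeR adjusted p from 1.98e-10 to 0.00327. Gadd45b was lower in spleen than in lymph node by 3.40 ± 0.18 on the log2 scale, as were Furin by 2.25 ± 0.15 and Gadd45g by 1.09 ± 0.18, whereas Tbx21 was higher in spleen by 1.60 ± 0.15 (edgeR adjusted p 5.89e-16 to 3.84e-05).

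Of the related receptor chains, Il23r, the partner of Il12rb1 in the IL-23 receptor, was lower in liver (-5.71 ± 0.35) and spleen (-3.71 ± 0.32) than in lymph node, and lower in liver than in spleen (-1.99 ± 0.56, edgeR adjusted p = 0.00953). Il1r1, a relative of Il18r1, was lower in both as well (-4.34 ± 0.39 and -3.34 ± 0.40, adjusted p = 9.04e-11 and 8.07e-08). The iNKT17-like cells, which were mostly from lymph node, moved with these values, and their part was not tested. Of 12 genes of IL-18 receptor signalling, 5 were higher and none lower in liver than in lymph node, 3 higher and 1 lower in liver than in spleen, and 1 higher and 2 lower in spleen than in lymph node. Of 7 inhibitors, the corresponding counts were 2 and 1, 2 and 0, and 0 and 2. Over all genes the shares called in either direction were 37.6%, 25.9% and 18.2% for these comparisons, so that counts of this size in such short lists are near the background.

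In iNKT1-like cells 42 of the 51 genes were tested. For liver against lymph node 10 were higher and 5 lower in liver, for liver against spleen 12 and 1, and for spleen against lymph node 2 and 6 in spleen. Over all genes tested 8.94% and 11.5%, 11.5% and 11.7%, and 2.79% and 5.08% were called. The median log2 fold change was 0.18, 0.30 and -0.036, against 0.017, 0.015 and 0.0054 over all genes tested. Gadd45b (-3.54 ± 0.18) and Gadd45g (-2.09 ± 0.25) were lower and Cxcl10 (1.80 ± 0.65), Gbp3 (1.30 ± 0.46) and Nlrc5 (1.26 ± 0.30) higher in liver than in lymph node, with edgeR adjusted p from 1.59e-23 to 0.0466. Liver exceeded spleen in Cxcl10 (1.93 ± 0.44), Nlrc5 (1.23 ± 0.22), Socs3, a feedback inhibitor of cytokine signalling (0.87 ± 0.24), Igtp (0.74 ± 0.13), Il10rb, an IL-10 receptor chain (0.59 ± 0.14), and Gbp7 (0.58 ± 0.12). Spleen was below lymph node in Gadd45b (-3.95 ± 0.21), Gadd45g (-1.48 ± 0.25), Socs3 (-1.04 ± 0.32) and Nfkb1, an NF-kB subunit (-0.63 ± 0.16), and above it in Tbx21 (0.76 ± 0.19). Tbx21 was also a marker used to name the class, so its value there is not independent of how the cells were chosen. In iNKT17-like cells 6 of the 51 were tested and none was called in any comparison.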

How the data were processed

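The authors made droplet libraries of transcript 3′ ends, and the submitters' processing notes name Cell Ranger 3.1.0, Seurat and the mm10 build. The deposited matrices hold raw counts of UMIs per gene and cell barcode, and the deposited gene and barcode lists hold other, non-numeric values. The annotation version is not given in the sources used here, so locations came from the GENCODE annotation of GRCm38 by Ensembl identifier, and promoters from RefSeq. The 7 genes, the pathway list and the marker lists were chosen with earlier results of these data known.

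Of 16587 barcodes, 55 were removed for holding under 300 or over 4000 genes, or a mitochondrial share above 15%. This left more cells in every library than the study gives. Ribosomal and haemoglobin genes (115 genes, 23.8% to 35.2% of UMIs) were left out. Cells were clustered with scanpy 1.11.5 (3000 variable genes, 20 components, 20 neighbours, Leiden resolution 0.5) without the members and pathway genes, and named from marker lists, so the names are rebuilt and not the study's. Doublets were kept, and leaving out the 2% of cells with the highest Scrublet scores was an alternative. UMIs were summed per library and tested with edgeR 4.0.16 (quasi-likelihood, TMM scaling, low-count filter) in R 4.3.3, all organs in 1 fit, with Benjamini-Hochberg adjustment over all genes tested. The tests were tried on simulated data. CPM values are UMIs per 1000000 UMIs of the kept genes. Pathway genes named in the text were the 6 with the largest change among those called in a comparison, with the ligands and Janus kinases in addition.

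Alternatives were DESeq2 1.42.0, other scalings, no filter, the replicate number as a block, leaving out each library, thinning libraries, keeping ribosomal genes, other resolutions, all barcodes and leaving out iNKT17-like cells. Protein sequences were not used here.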

Additional observations from a re-analysis of the deposited data

Results flagged for a closer look

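The organ difference of Il18r1 between liver and lymph node differed between iNKT17-like and iNKT1-like cells by 0.829 on the log2 scale (SE 0.224, n = 2 libraries per organ, edgeR adjusted p = 0.0350). It was picked out because the difference itself was tested, as the interaction of class and organ. It came from a joint fit of both classes with its own scaling, and is not the difference of the values from the fit of each class alone, which were -0.25 in iNKT17-like and -1.37 in iNKT1-like cells. The iNKT17-like sums of the liver libraries rest on 15 and 27 cells and on 31 and 36 UMIs of Il18r1. Without liver replicate 1 the interaction was 0.51 (adjusted p = 0.926).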

How the results depend on the processing

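Of the values of single members under the alternatives, 320 of those in all cells kept their direction and side of the threshold, 8 were newly called, 6 lost their call and 2 changed sign. The corresponding counts were 342, 3, 16 and 13 in iNKT1-like cells and 87, 4, 4 and 1 in iNKT17-like cells. Scaling by library totals shifted the median of all genes by at most 0.0946 on the log2 scale. Counts of called genes fell with DESeq2 to 1439 (all cells, liver against spleen), 1139 (all cells, spleen against lymph node) and 746, 989 and 378 in iNKT1-like cells (liver against spleen, liver against lymph node, spleen against lymph node), where 1 member remained called between liver and spleen. With libraries thinned to an equal total the iNKT1-like counts were 770, 1257 and 477, and at resolution 1.0 those with lymph node were 1148 and 407. With the whole lymph node cluster in the class they were 3135 and 1493, and without its iNKT1-like part 624 and 199, with 3 and 1 members called. Both of these last settings were chosen after seeing the data.

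In iNKT17-like cells the counts for liver against spleen were 37 thinned, 77 with ribosomal genes kept and 51 at resolution 0.3, those for liver against lymph node 88, 266 and 285 (0 members called when thinned), and those for spleen against lymph node 72 without a filter (1 member called), 14 thinned and 104 at resolution 0.3. Leaving out 1 library gave 1386 to 2422, 2398 to 4049 and 1016 to 1955 called genes in all cells (3 to 5, 6 to 7 and 4 members), 636 to 2133, 841 to 1894 and 325 to 824 in iNKT1-like cells (1 to 2, 3 to 5 and 2 to 4 members) and 4 to 39, 92 to 223 and 17 to 49 in iNKT17-like cells (0 to 1 members in each). Counts in all cells were lowest without liver replicate 1 (1386), lymph node replicate 2 (2398 and 1016) and, for liver against spleen, also low without spleen replicate 2 (1396). The correlations of same-numbered deviations between organs were low, at 0.0862, 0.0837 and 0.0684. They cannot settle whether the replicate numbers pair the samples, since sampling noise lowers them and the labels name no animals. With the replicate block, 61 genes (liver against spleen) and 52 genes (spleen against lymph node) were called in iNKT17-like cells, the latter with 1 member, Il18r1 (-0.83, edgeR adjusted p = 0.0217).

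The interaction of Il18r1 for liver against lymph node was 0.74 without a filter, 0.81 at resolution 1.0 and 0.77 without high doublet scores, none of them called, 0.51 to 1.22 on leaving out 1 library, and 1.59, still called, with libraries thinned to an equal total. For spleen against lymph node, uncalled throughout, it changed sign to 0.0824 with RLE size factors, 0.11 with library totals, 0.12 at resolution 0.3 and 0.47 thinned. Uncalled values that changed sign were Il18rap in all cells, liver against spleen (-0.022 without spleen replicate 2, and 0.257 at the other end, without spleen replicate 1), and Ifngr1 in all cells, spleen against lymph node (0.11 without iNKT17-like cells). In iNKT1-like cells they were Il12rb1 (-0.0014) and Stat4 (-0.23) for liver against spleen when thinned, Ifngr2 for liver against spleen (-0.698 to 0.223 on leaving out 1 library, above 0 without liver replicate 2 or spleen replicate 1), and Il18rap for liver against lymph node (-0.21 without lymph node replicate 1 and -0.26 without the lymph node cluster part). For spleen against lymph node they were Il18rap (0.0233 without a filter, -0.276 to 0.302 on leaving out 1 library, 0.35 with the whole cluster) and Ifngr1 (-0.277 to 0.0892 on leaving out 1 library, above 0 without lymph node replicate 2, 0.37 with the whole cluster, 0.15 without its part). In iNKT17-like cells Il18r1 for liver against lymph node was 0.15 when thinned. The causes were not tested.

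Without thinning, the shares of cells in liver, spleen and lymph node were 13.1%, 6.18% and 5.19% for Il12rb1, 9.79%, 4.14% and 0.847% for Il12rb2, 20.96%, 20.03% and 39.7% for Il18r1, 11.3%, 6.34% and 5.25% for Il18rap, 55.3%, 18.0% and 19.7% for Ifngr1, 0.635%, 1.19% and 4.19% for Ifngr2 and 19.6%, 8.22% and 2.83% for Stat4. Depth limits Ifngr2 and Il12rb2 most, with 2 to 12 and 7 to 232 UMIs per library in iNKT1-like cells.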
